A study of Homo sapiens with 8 samples.

Results

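The genes of Nodal, activin and BMP signaling were followed through RNA-seq of hESCs. They are 38 genes of the TGF-beta superfamily pathways, chosen by name and looked up by Ensembl gene ID. All 38 were among the 57773 genes of the count tables, as 8 ligands, 6 secreted antagonists, 9 receptors, 1 decoy receptor, 7 SMADs, 2 nuclear corepressors and 5 target genes. The expression filter kept 37 of them, with 23474 genes in all, and left out the antagonist gene NOG. The cells were H9 hESCs, an established embryonic stem cell line, kept in mTeSR1 medium, with 2 RNA-seq libraries for each of 4 conditions. WT cells were untreated and carried an HA tag on CHD7, a chromatin remodeler. CHD7 knockout cells were CHD7 -/-, made by CRISPR-Cas9 editing, and were untreated. HERVH knockdown cells had the same HA-tagged genotype as WT and were treated for 24 h with LNA-GapmeRs against HERVH, a family of endogenous retroviral elements that is transcribed in hESCs. HERVH element deleted cells lacked a single HERVH element on chromosome 2, removed by CRISPR-Cas9 in clones, and were untreated. The labels do not say whether the knockout and deleted cells carried the HA tag, nor whether the 2 libraries of an edited line came from separate clones or cultures, so the tests measure the spread between these libraries, which may be technical. The knockdown cells were transfected and the WT cells were not, and no libraries from cells with a control oligonucleotide were used here, so that loss of HERVH RNA and the treatment itself cannot be told apart.

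In this family of pathways, a secreted ligand brings type I and type II receptor kinases together, and the type I receptor phosphorylates receptor SMADs, which enter the nucleus with SMAD4. Nodal, activin and TGF-beta act through SMAD2 and SMAD3, and BMPs through SMAD1 and SMAD5. Secreted antagonists such as the LEFTY proteins, CER1, FST and GREM1 limit the ligands outside the cell, and inhibitory SMADs limit the signal inside it. Activin and Nodal signaling maintains the pluripotent state of hESCs, and BMP signaling can take them out of it.

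The GapmeRs are shown because they define the knockdown. They are 3 antisense oligonucleotides of 16 bases, written 5′ to 3′ with no part in capitals.
SHHERVH_3: ggaagatttgggacga
SHHERVH_4: attgggacctagctcg
SHHERVH_12: atgtggagtgggtagc
Their target sites were searched for in the spliced transcripts of 22745 genes of the GRCh37 annotation. Sites with at most 2 mismatches were in 24 genes for SHHERVH_3, 7 for SHHERVH_4 and 22 for SHHERVH_12, or 0.106%, 0.0308% and 0.0967% of genes. Transcripts of the 38 signaling genes held no such site, and their closest matches had 4 mismatches for each of the 3 oligonucleotides. Introns were not searched.

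Reads counted on genes ranged from 14802049 to 23156445 per library, so that 3 counts corresponded to 0.128 to 0.218 CPM (read counts scaled to a common library size, with TMM factors), a floor that covers counting error only. The targets were checked first: CHD7 fell from 14098 and 13888 counts to 4269 and 3667 in its knockout, and ESRG, a lncRNA that overlaps an HERVH element, fell from 10133 and 7197 counts to 3113 and 2175 in HERVH knockdown cells. HERVH knockdown replicate 2 stood apart from the other libraries. Its log2 difference from replicate 1 rose with exonic GC content (Spearman's rho 0.716 across 12840 genes, which share the same 2 libraries), and 8.87% of its counts lay in its 10 highest genes, where the other libraries had 4.09% to 5.08%. All 10 pluripotency markers followed, POU5F1, SOX2 and NANOG among them, were expressed in each library, with a summed level of 6437 to 6470 CPM in WT and 6590 to 7921 CPM in the other conditions, and 0 of the 10 passed the edgeR test described next, with 1 to 3 at an unadjusted p below 0.05 in each comparison with WT.

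Differences between the 4 conditions lay mostly in the secreted proteins, the ligands and their antagonists, while the receptors and most SMADs were close to the WT level. A gene was said to have changed at an FDR below 0.05 over all genes tested, in edgeR's quasi-likelihood test of all 8 libraries. In HERVH knockdown cells, FST, TGFB1 and CER1 rose and 0 of the 37 genes tested fell, against 0.618% of all genes that rose and 1.53% that fell (2.15% in either direction). In CHD7 knockout cells, GREM1 fell and 0 of 37 rose, against 0.613% of all genes that fell and 1.19% that rose. In HERVH element deleted cells 0 of 37 changed, against 0.0724% of all genes, with 0 at an unadjusted p below 0.05 and 0 by DESeq2 or edgeR's exact test. The corresponding numbers at an unadjusted p below 0.05 were 15 in HERVH knockdown and 7 in CHD7 knockout cells, where 19% and 10.9% of all genes were below it, and 2.63% in HERVH element deleted cells. The stricter threshold for DEGs asks for a 2-fold change together with an FDR below 0.01, and 0 of 37 met it in the 3 comparisons with WT, in the quasi-likelihood test of edgeR. Of all genes, 0.571% were DEGs in CHD7 knockout cells (0.337% up and 0.234% down), 0.217% in HERVH knockdown cells (0.0809% up and 0.136% down) and 0.0298% in HERVH element deleted cells. DESeq2 called 4 up in HERVH knockdown cells at that threshold, against 0.452% of all genes by DESeq2, and 1 down in CHD7 knockout cells, against 0.469%. The median log2 fold changes of the 37 genes were -0.01 in CHD7 knockout, 0.07 in HERVH knockdown and -0.04 in HERVH element deleted cells, beside -0.01, 0.04 and -0.02 for all genes.

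**Figure D1:**
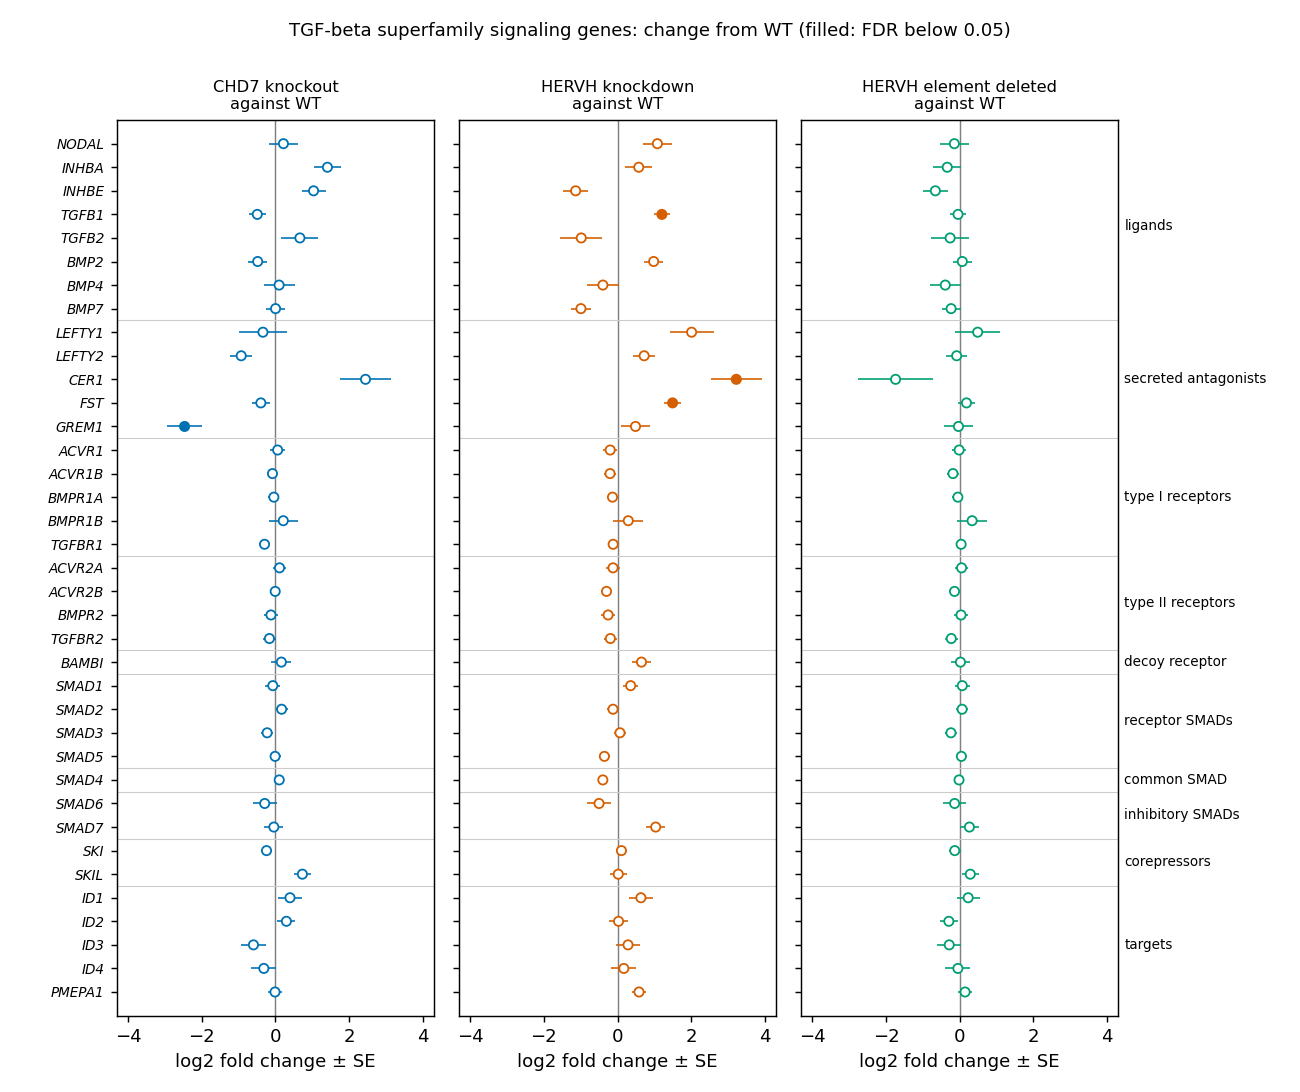
Log2 fold change from WT (x axis, ± SE) of the 37 signaling genes that passed the expression filter, grouped by role (y axis), in a panel for each altered condition (CHD7 knockout, HERVH knockdown, then deletion of the element), 2 libraries per condition. Filled points have an FDR below 0.05, and they are GREM1 in the first panel and TGFB1, CER1 and FST in the second. The receptors lie within 0.34 of 0 in each panel.

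The ligands are taken first. NODAL, the ligand that patterns the early embryo, was scarce, with 1.11 and 2.06 CPM in WT, 1.8 and 1.88 in CHD7 knockout, 3.5 and 3.2 in HERVH knockdown and 1.41 and 1.46 in HERVH element deleted cells. Both knockdown libraries were above the other 6, but the log2 fold change of 1.08 (SE 0.385) did not pass the test (FDR = 0.153, edgeR). TGFB1, which encodes the founding TGF-beta ligand, was 13.4 and 12.2 CPM in WT, 31.8 and 27.2 in HERVH knockdown, 10.5 and 7.64 in CHD7 knockout and 13.4 and 11.4 in HERVH element deleted cells. It rose in HERVH knockdown cells by 2.31-fold (log2 fold change 1.21, SE 0.22, FDR = 0.0178, edgeR). The call was lost without either WT library, in fits where the lone WT library is assumed to vary like the other groups. It was also lost in a fit of the WT and knockdown libraries alone (FDR = 0.0847, edgeR). Fewer of all genes were called in these fits, and 0.115% rose in the last, against 0.618% in the fit of all 8 libraries. The log2 fold change of TGFB1 was 1.06 to 1.31 across the alternatives. TGFB1 lies on chromosome 19 of GRCh37 from 41807492 to 41859827 on the minus strand and overlaps HNRNPUL1, CCDC97 and TMEM91 on the opposite strand. The sources used here do not give the strand setting of the read counting, so reads in these overlaps are uncertain. CCDC97, with an overlap of 14702 bp, was at 610 and 593 counts in WT, and at 795 and 687 in HERVH knockdown cells.

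The BMP ligands did not move together. BMP4, a ligand that drives hESCs toward mesoderm and extraembryonic fates, was 2.82 and 3.65 CPM in WT, 4.48 and 2.42 in CHD7 knockout, 1.7 and 3.28 in HERVH knockdown and 3.16 and 1.73 in HERVH element deleted cells, and the 4 ranges overlapped. BMP2 was 5.68 and 6.45 CPM in WT and 10.4 and 13.6 in HERVH knockdown cells, with a log2 fold change (SE) of 0.98 (0.25) and an FDR of 0.0591 by edgeR. BMP7 was 12.5 and 8.89 CPM in WT and 4.54 and 6.26 in HERVH knockdown cells, with a log2 fold change (SE) of -0.99 (0.271) and an FDR of 0.0727 by edgeR. Neither passed the threshold, although in both genes the 2 knockdown libraries lay outside the other 6. BMP2, BMP7 and the 2 inhibin beta genes that follow were singled out after their values were seen. INHBA, which encodes the subunit of activin A, was 3.28 and 1.59 CPM in WT, 7.12 and 5.86 in CHD7 knockout, 4.11 and 3.13 in HERVH knockdown and 1.97 and 1.89 in HERVH element deleted cells, with a log2 fold change of 1.41 in CHD7 knockout cells (SE 0.356, FDR = 0.0674, edgeR), which passed the threshold under 8 of 13 alternatives. INHBE, another inhibin beta gene, was 17.9 and 12.6 CPM in WT, 25.3 and 37.4 in CHD7 knockout, 4.38 and 9.69 in HERVH knockdown and 11.4 and 7.88 in HERVH element deleted cells. Its log2 fold changes of 1.04 in CHD7 knockout and -1.14 in HERVH knockdown cells did not pass the test against WT (FDR = 0.159 and 0.104, edgeR). TGFB2, a second TGF-beta ligand, was at 25 and 24 counts in WT, and at 16 and 3 in HERVH knockdown cells.

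Among the secreted antagonists, LEFTY1 and LEFTY2 restrain Nodal and are themselves known as Nodal targets. LEFTY1 was 0.462 and 2.39 CPM in WT, 1.57 and 0.645 in CHD7 knockout, 4.22 and 7.36 in HERVH knockdown and 1.5 and 2.54 in HERVH element deleted cells. The WT libraries differed by more than the WT and knockout groups did, and the log2 fold change of 2.01 in HERVH knockdown cells (SE 0.595) had an FDR of 0.096 by edgeR. LEFTY2 was 5.63 and 7.62 CPM in WT, 3.47 and 3.5 in CHD7 knockout, 8.16 and 13.8 in HERVH knockdown and 6.54 and 5.99 in HERVH element deleted cells. Its log2 fold changes were -0.93 in CHD7 knockout and 0.72 in HERVH knockdown cells (FDR = 0.182 and 0.2, edgeR), and in neither of these conditions did its libraries overlap with WT. The LEFTY genes are near-identical neighbours on chromosome 1, LEFTY1 from 226073982 to 226099082 and LEFTY2 from 226124298 to 226129083, and their counts are uncertain where a read matches both. In CHD7 knockout libraries, the 61 better expressed genes within 5 Mb of LEFTY2 had median log2 changes of 0.44 and 0.33. The 27 such genes around TGFB2, on the same chromosome arm, had 0.42 and 0.42. These windows overlap in part, and neighbours were taken only from the 12610 better expressed genes. LEFTY2 was thus low within a region that was high in CHD7 knockout cells. The part of this region in the LEFTY2 and TGFB2 values was not tested.

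CER1 encodes Cerberus, a secreted inhibitor of Nodal and BMPs that is also a marker of endoderm. It had 7 and 4 counts in WT, 48 and 11 in CHD7 knockout, 39 and 38 in HERVH knockdown and 1 and 2 in HERVH element deleted cells. In HERVH knockdown cells it rose from 0.255 to 2.45 CPM, the means of 2 libraries, or by 3.23 on the log2 scale (SE 0.688, FDR = 0.0309, edgeR). The call was lost without either WT replicate, where fewer of all genes were called. The log2 fold change of CER1 was 2.87 to 3.66 across the alternatives. In CHD7 knockout cells both libraries were above WT too, with a log2 fold change of 2.45, but the replicates were far apart, at 2.22 and 0.592 CPM, and the change did not pass the test (FDR = 0.111, edgeR). The summed count of 77 in HERVH knockdown against 3 in HERVH element deleted cells corresponded to a ratio of 33.6 after scaling (exact 95% counting interval 11.1 to 167), and the ratio of CHD7 knockout to HERVH element deleted cells was 20.5 (6.68 to 102). Against WT, the interval of the same ratio ran from 0.944 to 19.9, so that a fall in the deleted cells was not detectable at this depth. Beside CER1, the summed level of 5 endoderm markers was 12 to 12.2 CPM in HERVH knockdown cells, 2.12 to 5.8 in WT, 1.56 to 2.17 in CHD7 knockout and 5.34 to 5.93 in HERVH element deleted cells. Of that list, SOX17 and GATA6 had at most 1 count in each WT and HERVH knockdown library, and FOXA2 made up most of the sum, with 188 and 133 counts in HERVH knockdown and 30 and 106 in WT (FDR = 0.0719, edgeR). In CHD7 knockout cells FOXA2 fell to 7 and 13 counts (log2 fold change -2.64, FDR = 0.0317, edgeR), while both CER1 values there were above WT. The part of endoderm-like cells in the CER1 level was not tested, and in bulk RNA more cells of a type and more RNA per cell cannot be told apart.

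FST encodes follistatin, which binds and neutralizes activins. It was 13.8 and 13.1 CPM in WT, 12.1 and 8.39 in CHD7 knockout, 40.5 and 35.4 in HERVH knockdown and 12.4 and 18.4 in HERVH element deleted cells. The knockdown libraries were both above the other 6, a rise of 2.82-fold from WT (log2 fold change 1.49, SE 0.241, FDR = 0.0107, edgeR). The call was lost without either WT replicate, where fewer of all genes were called. The log2 fold change of FST was 1.36 to 1.59 across the alternatives. GREM1 encodes gremlin, an antagonist of BMPs. It was 1.75 and 3.27 CPM in WT, 0.37 and 0.538 in CHD7 knockout, 3.83 and 3.2 in HERVH knockdown and 2.95 and 1.94 in HERVH element deleted cells, so that the CHD7 knockout libraries were below the other 6. It fell in CHD7 knockout cells to 8 and 10 counts from 38 and 70, with a log2 fold change (SE) of -2.47 (0.477) and an FDR of 0.0176 by edgeR. This call was lost without WT replicate 2, CHD7 knockout replicate 1 or CHD7 knockout replicate 2, where fewer of all genes were called. The log2 fold change of GREM1 was -2.85 to -1.94 across the alternatives. NOG, which encodes the BMP antagonist noggin, had 12 and 8 counts in WT, 9 and 6 in CHD7 knockout, 3 and 2 in HERVH knockdown and 4 and 4 in HERVH element deleted cells, and was not tested. The ratio of its summed counts in WT to those in HERVH knockdown cells was 2.97 after scaling (exact 95% counting interval 1.08 to 10.1).

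**Figure D2:**
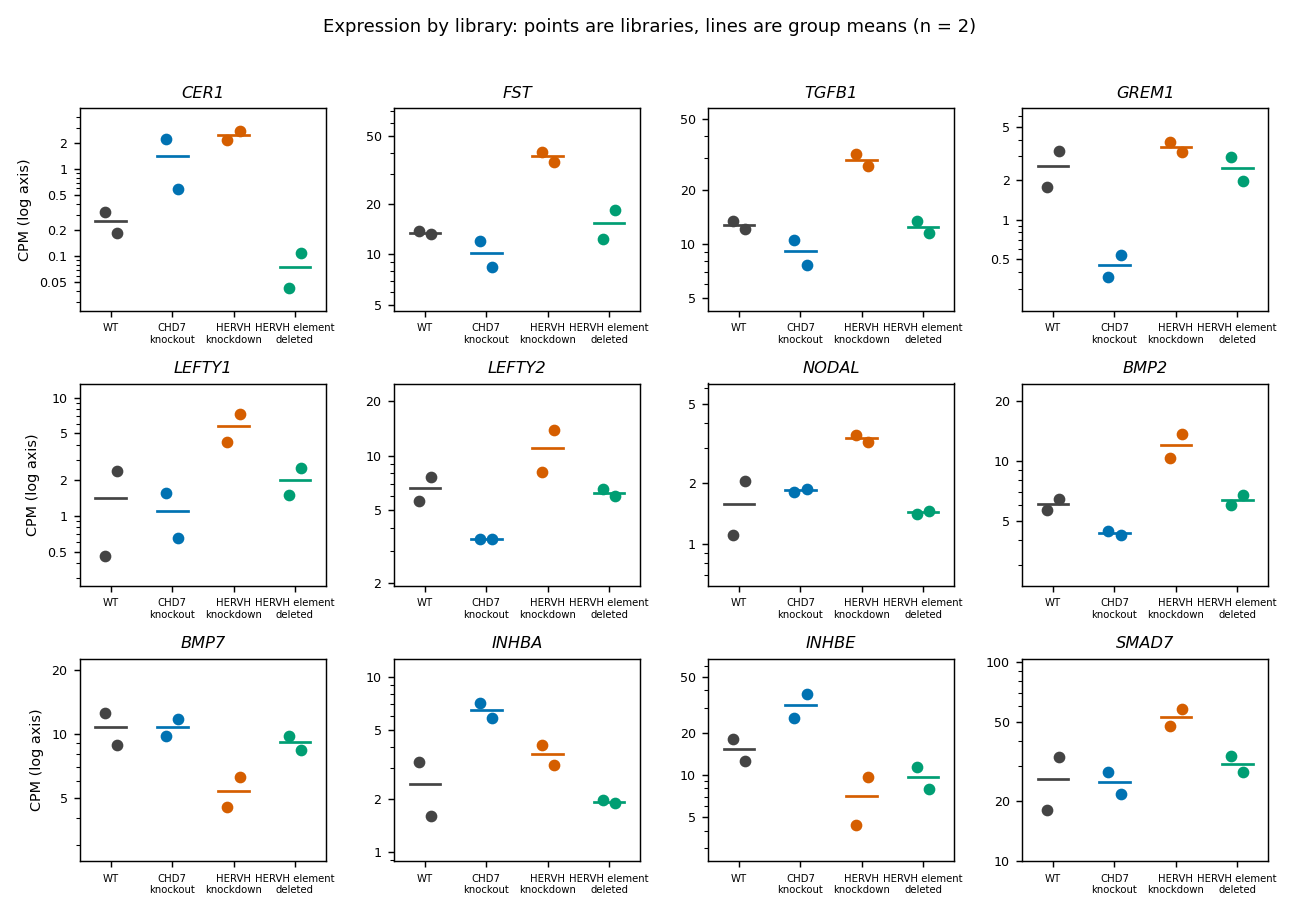
Expression of 11 genes of secreted proteins and of SMAD7 in each library (y axis, CPM, log axis with a separate range in each panel) for the 4 conditions (x axis). Points are libraries and lines are group means. CER1, FST and TGFB1 are higher in both HERVH knockdown libraries than in both WT libraries, and GREM1 is lower in both CHD7 knockout libraries.

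The promoters of the 4 genes that changed are shown as the DNA next to their start sites. Windows from 250 bases before to 50 bases after a start site were available from RefSeq for 31 of the 38 genes, with sequences given for GRCh38.p14. Each was found once on its chromosome in GRCh37, and positions below are in that build. The 250 bases before the start site are printed, 5′ to 3′ on the strand of the gene. Capitals mark the SMAD box CAGAC, on either strand (GTCTG on the printed one), and the FOXH1 element AATNCACA, the motif of a SMAD2 and SMAD3 partner in hESCs. These 2 motifs were chosen with the results known. The CER1 window, chr9:14722732-14722981 on the minus strand, holds a SMAD box at -218 and a FOXH1 element at -154. The FST window, chr5:52776209-52776458 on the plus strand, and the TGFB1 window, chr19:41859828-41860077 on the minus strand, hold neither. The GREM1 window, chr15:33009955-33010204 on the plus strand, holds SMAD boxes at -196 and -99, and a second GREM1 start site has another window.
CER1: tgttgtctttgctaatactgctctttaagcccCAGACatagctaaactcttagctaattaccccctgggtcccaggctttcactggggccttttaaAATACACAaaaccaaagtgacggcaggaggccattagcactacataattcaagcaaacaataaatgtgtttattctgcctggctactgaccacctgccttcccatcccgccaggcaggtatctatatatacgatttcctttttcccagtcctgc
FST: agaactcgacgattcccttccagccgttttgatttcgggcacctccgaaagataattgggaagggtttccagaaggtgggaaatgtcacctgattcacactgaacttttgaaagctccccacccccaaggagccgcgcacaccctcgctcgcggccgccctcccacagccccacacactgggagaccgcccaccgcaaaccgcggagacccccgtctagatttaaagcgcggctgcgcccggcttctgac
TGFB1: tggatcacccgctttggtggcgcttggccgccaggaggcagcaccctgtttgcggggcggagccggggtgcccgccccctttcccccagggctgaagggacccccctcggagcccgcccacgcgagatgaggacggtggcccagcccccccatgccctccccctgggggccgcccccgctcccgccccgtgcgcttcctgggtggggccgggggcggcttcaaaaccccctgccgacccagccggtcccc
GREM1: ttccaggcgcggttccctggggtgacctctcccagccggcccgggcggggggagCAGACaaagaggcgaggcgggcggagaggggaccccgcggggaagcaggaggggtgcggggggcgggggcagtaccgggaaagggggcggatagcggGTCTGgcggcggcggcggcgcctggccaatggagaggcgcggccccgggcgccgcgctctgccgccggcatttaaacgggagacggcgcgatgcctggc
The SMAD box occurs by its letters in 45.3% of 35116 RefSeq promoter windows and in 32 of the 61 windows of the 31 genes. The FOXH1 element occurs in 3.31% of all windows and in 4 of the 61. A match is a description of letters and says nothing of binding in these cells.

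All 9 receptors passed the expression filter, and 0 of 9 changed in each of the 3 comparisons with WT, with log2 fold changes from -0.29 to 0.21 in CHD7 knockout, -0.3 to 0.29 in HERVH knockdown and -0.23 to 0.34 in HERVH element deleted cells. At an unadjusted p below 0.05, ACVR2B was the single receptor, in HERVH knockdown cells (log2 fold change -0.3, FDR = 0.26, edgeR). Levels were compared between genes as RPKM, here CPM per kb of exon. Exon length was the union of all annotated exons of a gene, from an annotation other than the one used for counting. The order between genes depends on these lengths, an uncertainty that the spread between libraries does not cover. ACVR2B, a type II receptor for activin and Nodal, was the highest at 28.3 and 28.8 RPKM in WT, above BMPR1A, a type I BMP receptor, at 17.9 and 16.8. TGFBR1 and ACVR1B, the type I receptors of TGF-beta and of activin and Nodal, followed at 12.4 and 12.5 RPKM and 8.92 and 9.34 RPKM. BMPR2 was 4.52 and 4.45 RPKM, ACVR2A 3.72 and 3.85, TGFBR2 3.61 and 3.41, ACVR1 2.37 and 2.44 and BMPR1B 0.197 and 0.264. No neighbours in this order overlapped between the 2 WT libraries. BAMBI, a decoy receptor without a kinase domain, was 9.97 and 12.9 CPM in WT and 12.9 and 23.2 CPM in HERVH knockdown cells, and the knockdown replicates differed by more than their mean differed from WT.

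Of the 7 SMADs, 0 changed in a comparison with WT by edgeR, with 3 at an unadjusted p below 0.05 in HERVH knockdown cells and 0 in the others. SMAD2 was 172 and 161 CPM in WT, 183 and 192 in CHD7 knockout, 179 and 127 in HERVH knockdown and 178 and 171 in HERVH element deleted cells. SMAD3 was 46.7 and 41.8 CPM in WT, 34.8 and 41 in CHD7 knockout, 47 and 45.7 in HERVH knockdown and 38.8 and 36.4 in HERVH element deleted cells. For these partners of Nodal and activin receptors, the log2 fold changes lay between -0.23 and 0.17 in the 3 comparisons. SMAD1 and SMAD5, their counterparts for BMPs, had log2 fold changes of 0.36 and -0.36 in HERVH knockdown cells and between -0.07 and 0.07 elsewhere. SMAD4, the partner of all receptor SMADs, was 114 and 120 CPM in WT and 91.1 and 86.6 CPM in HERVH knockdown cells (log2 fold change -0.4, FDR = 0.153, edgeR). Of the inhibitory SMADs in HERVH knockdown cells, SMAD7 was higher by 1.04 on the log2 scale (SE 0.259) without passing the threshold (FDR = 0.0563, edgeR). SMAD6 was 12 and 12.3 CPM in WT and 5.26 and 12.1 CPM in HERVH knockdown cells, low in replicate 1 and at the WT level in replicate 2. SMAD7, which blocks both branches of the pathway, was 47.4 and 57.6 CPM in HERVH knockdown cells against 17.9 and 33.3 CPM in WT, so that the WT libraries were themselves far apart. It was singled out after its values were seen, and it passed the threshold under 10 of 12 alternatives.

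**Figure D3:**
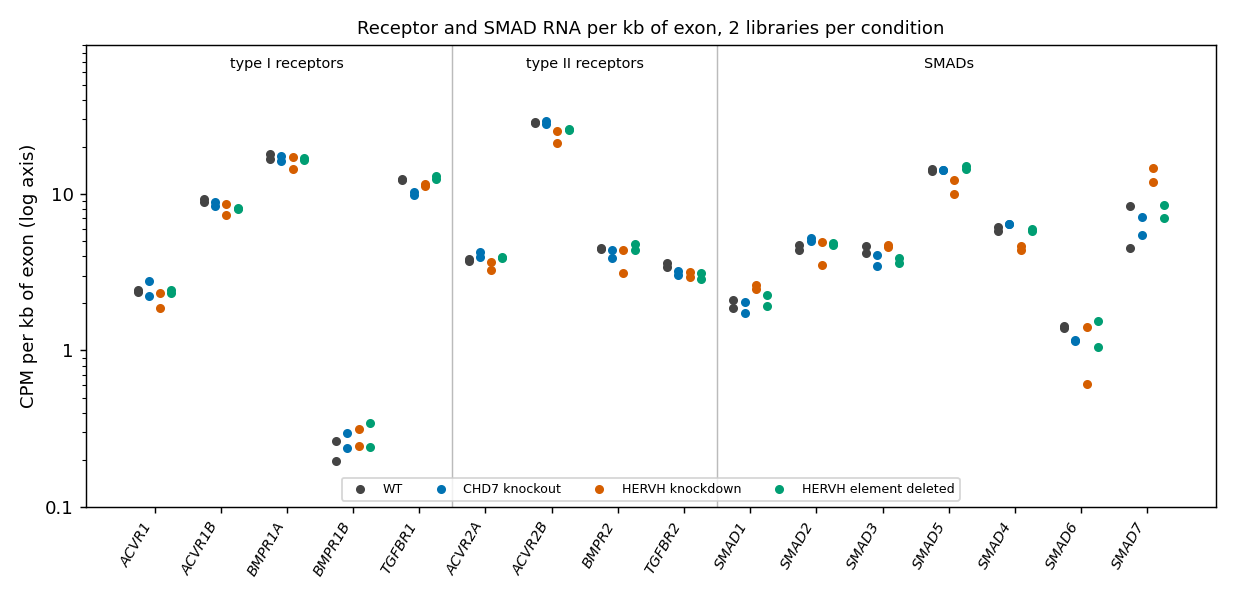
Expression per kb of exon (y axis, CPM per kb of exon, log axis) of 9 receptors and 7 SMADs (x axis) in the 4 conditions, with a point for each of 2 libraries. Values of each receptor lie close together across the 8 libraries, and SMAD7 is highest in the HERVH knockdown libraries.

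SKI and SKIL encode corepressors that hold SMAD target genes silent. SKIL was among the highest of the 38 genes, at 32.9 and 37.1 RPKM in WT, and was 267 and 301 CPM in WT, 489 and 456 in CHD7 knockout, 384 and 193 in HERVH knockdown and 346 and 349 in HERVH element deleted cells. The log2 fold change of 0.73 in CHD7 knockout cells had an FDR of 0.166 by edgeR, and the HERVH knockdown replicates lay on either side of WT. SKI was 188 and 210 CPM in WT and 156 to 241 CPM in the other libraries.

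ID1 to ID4 encode inhibitors of DNA binding and are the standard readout of BMP signaling, and PMEPA1 is a target of TGF-beta that feeds back on it. Of the 5, 0 changed in a comparison with WT by edgeR, with 1 at an unadjusted p below 0.05, and the smallest FDR was 0.129, for PMEPA1 in HERVH knockdown cells (log2 fold change 0.58, edgeR). ID3 was the highest of the 38 genes per kb of exon, at 51.9 and 64.7 RPKM in WT. It was 77.6 and 96.9 CPM in WT, 61.4 and 54.1 in CHD7 knockout, 54.8 and 158 in HERVH knockdown and 67.9 and 75.6 in HERVH element deleted cells. ID1 was 22.9 and 31.4 CPM in WT, 42.3 and 29.2 in CHD7 knockout, 25.4 and 59.4 in HERVH knockdown and 29.7 and 34.2 in HERVH element deleted cells. In both genes the HERVH knockdown replicates were further apart than any condition means, and for ID3 they gave opposite signs, with log2 fold changes of -0.67 from replicate 1 alone and 0.83 from replicate 2 alone. ID2 lay between 11.4 and 20.3 CPM and ID4 between 1.71 and 3.07 CPM in all 8 libraries.

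The 3 genes that rose in HERVH knockdown cells were higher in each knockdown replicate on its own. With the other knockdown library left out, the log2 fold changes were 1.36 and 1.59 for FST, 1.06 and 1.31 for TGFB1 and 3.38 and 3.03 for CER1. These genes were picked from a fit of the same libraries, so the values are no independent support. Some markers of other cell types moved in the same cells, in differing directions, and others did not. The summed level of 5 mesoderm and stroma markers was 97.2 and 271 CPM in HERVH knockdown cells against 69.2 to 85.0 CPM in WT, most of it from COL1A1, at 93.6 and 269 CPM against 83.6 and 67.5 CPM (FDR = 0.0653, edgeR). That of 5 neuroectoderm markers was 3.28 to 3.45 CPM against 9.03 to 14 CPM in WT, where STMN2 gave 12.1 and 7.2 CPM of it. STMN2 fell in HERVH knockdown cells (log2 fold change -2.35, FDR = 0.00605, edgeR). It fell in CHD7 knockout cells too (log2 fold change -2, FDR = 0.00522, edgeR). The 5 mesendoderm markers summed to 2.4 to 2.46 CPM in HERVH knockdown cells and 1.87 to 3.32 in WT. For 7 trophoblast and amnion markers the sums were 3.5 to 7.21 CPM and 7.3 to 7.86 CPM. The part of these cell types in the rise of FST, TGFB1 and CER1 was not tested. Among other genes SMAD7 also rose with either knockdown library left out, by 1.15 without replicate 1 and 0.89 without replicate 2 on the log2 scale. Calls of other genes in these fits did not hold across the 2 libraries. Without replicate 2, 5 genes rose and 5 fell, and without replicate 1, 11 rose and 6 fell, with SKIL and ID3 called in opposite directions. Of all genes, 2.38% rose and 6.11% fell without replicate 2, and 9.07% rose and 8.52% fell without replicate 1. With a correction for GC content, 7 of the 37 genes rose, which added LEFTY1, BMP2, SMAD7 and PMEPA1, and BMP7 and INHBE fell, while 3.59% of all genes rose and 5.06% fell.

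**Figure D4:**
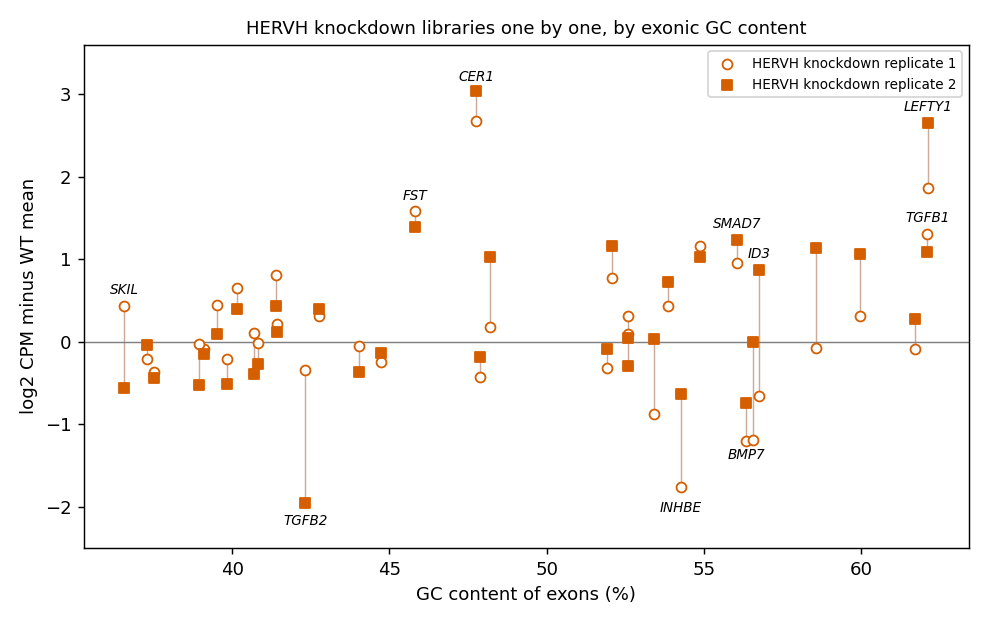
Log2 CPM minus the WT mean (y axis) of the 37 tested genes in HERVH knockdown replicate 1 (open circles) and replicate 2 (squares), against exonic GC content in percent (x axis), with a line joining the 2 values of a gene. Low-GC genes such as SKIL and TGFB2 are lower in replicate 2 and high-GC genes such as LEFTY1 and ID3 are higher in it. The values of FST, TGFB1, CER1, LEFTY1 and NODAL lie above 1 in both replicates.

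HERVH knockdown and CHD7 knockout cells were then compared directly, which tests whether their changes from WT differ without using the WT level. Of the 37 genes, 10 differed, 7 higher and 3 lower in HERVH knockdown cells, against 9.44% of all genes, 3.8% higher and 5.65% lower. FST, TGFB1, GREM1, BMP2, LEFTY2, SMAD7 and LEFTY1 were higher in HERVH knockdown cells, and INHBE, BMP7 and SMAD4 were lower. Of these, 5 were higher and 1 lower as DEGs, where all genes gave 0.797% and 1.86%. The 4 antagonists among them were higher by 1.89 for FST (FDR = 0.000563), 2.95 for GREM1 (FDR = 0.00232), 1.65 for LEFTY2 (FDR = 0.00493) and 2.35 for LEFTY1 (FDR = 0.0303) on the log2 scale, by edgeR's quasi-likelihood test. Of the 4 ligands, TGFB1 was higher by 1.7 (FDR = 0.000681) and BMP2 by 1.46 (FDR = 0.00379), while INHBE differed by -2.17 (FDR = 0.00221) and BMP7 by -1 (FDR = 0.0358), by the same edgeR test. SMAD7 and SMAD4 differed by 1.08 and -0.5 (FDR = 0.0212 and 0.0407, edgeR). The calls of FST, TGFB1, GREM1 and INHBE held under all 13 alternatives. Those of LEFTY1, LEFTY2, SMAD7 and BMP7 were lost without CHD7 knockout replicate 1 or replicate 2, that of LEFTY1 also without HERVH knockdown replicate 2, that of BMP7 also in a fit of these 4 libraries alone, that of BMP2 without CHD7 knockout replicate 2, and that of SMAD4 under 6 alternatives. Fewer of all genes were called without either CHD7 knockout replicate. In the fit of these 4 libraries alone, 1.36% of all genes were higher and 2.83% lower. Of the 9 receptors, 0 differed by edgeR, with 0 at an unadjusted p below 0.05.

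**Figure D5:**
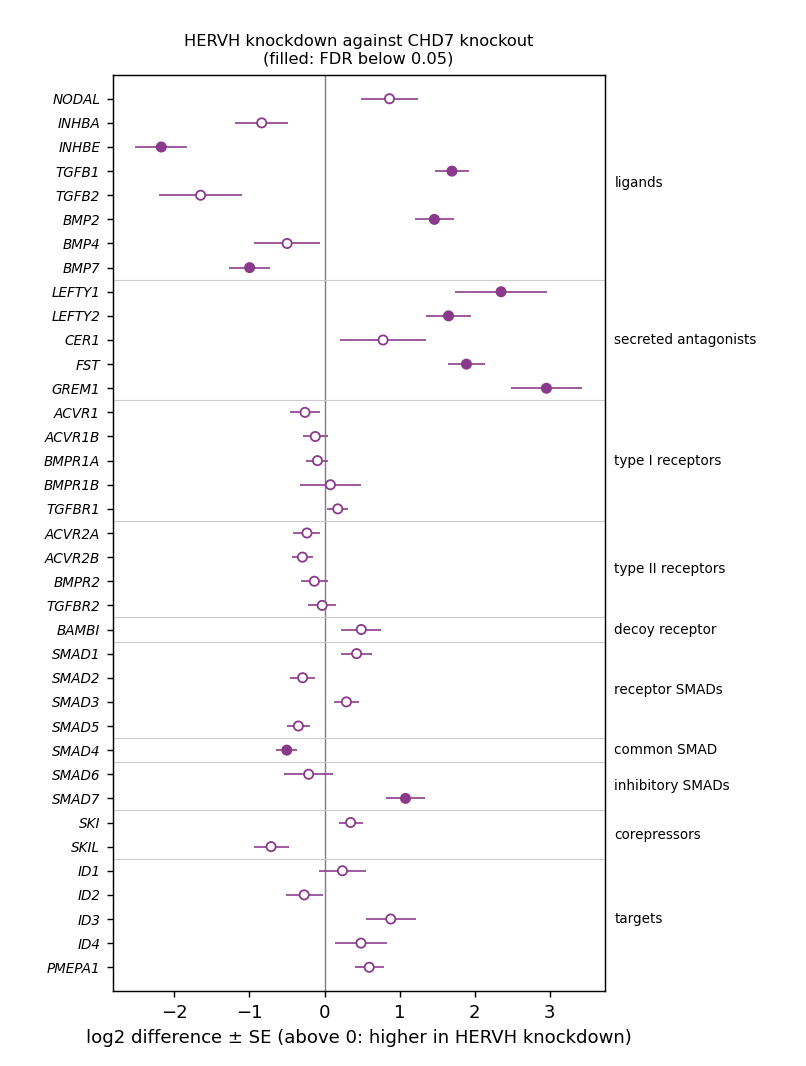
Log2 difference between HERVH knockdown and CHD7 knockout cells (x axis, ± SE, above 0 means higher in HERVH knockdown) for the 37 tested genes by role (y axis), 2 libraries per condition. The 10 filled points have an FDR below 0.05, and 8 of them are ligands or secreted antagonists.

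The other direct comparisons gave fewer differences. Between HERVH knockdown and HERVH element deleted cells, CER1, TGFB1 and FST differed, all higher in HERVH knockdown cells, against 1.33% of all genes (0.648% higher and 0.686% lower). TGFB1 was higher by 1.25 and FST by 1.31 on the log2 scale, and the FDRs of CER1, TGFB1 and FST were 0.0124, 0.016 and 0.0197 by edgeR. Between CHD7 knockout and HERVH element deleted cells, INHBA, INHBE and CER1 were higher and GREM1 was lower in CHD7 knockout cells, against 2.66% of all genes (1.98% higher and 0.682% lower). INHBA differed by 1.75, INHBE by 1.69 and GREM1 by -2.43 on the log2 scale, with FDRs of 0.0188, 0.0135 and 0.0131 by edgeR, and CER1 had an FDR of 0.0162. The 3 calls against HERVH knockdown cells were lost without either HERVH element deleted replicate and in a fit of these 4 libraries alone. Those of INHBA and INHBE were lost without any 1 of the CHD7 knockout or HERVH element deleted replicates, that of CER1 without CHD7 knockout replicate 1 or either deleted replicate, and that of GREM1 without either CHD7 knockout replicate or deleted replicate 1. Fewer of all genes were called in each of these fits. In the fit of the knockdown and deleted libraries alone, 0.0469% of all genes were higher and 0.00852% lower.

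Other genes of the pathways were followed in a list of 83, of which 81 had an ID in the count tables and 59 passed the filter. In CHD7 knockout cells GDF3 rose and LDLRAD4 fell, in HERVH knockdown cells TAGLN rose and LTBP1 fell among the genes reported, and in HERVH element deleted cells 0 of 59 changed by edgeR, with 2 at an unadjusted p below 0.05. GDF3, a ligand related to Nodal, had 948 and 793 counts in CHD7 knockout cells, 55 and 72 in WT and 48 to 63 in the other libraries, a rise of 3.87 on the log2 scale (FDR = 3.2e-06, edgeR). LDLRAD4, an inhibitor of TGF-beta signaling, was reduced to 76 and 73 counts in CHD7 knockout cells from 194 and 160 in WT (log2 fold change of -1.14, FDR = 0.0319, edgeR). TAGLN, an actin-binding protein gene and a TGF-beta target, had 1004 and 1441 counts in HERVH knockdown cells and 324 and 470 in WT (log2 fold change 2.11, FDR = 0.00572, edgeR). LTBP1, which tethers latent TGF-beta to the matrix, had 521 and 548 counts in HERVH knockdown cells and 1484 and 1356 in WT (log2 fold change -0.95, FDR = 0.0206, edgeR). TDGF1, the Nodal co-receptor and a pluripotency marker, was 472 and 468 CPM in WT and 447 to 594 CPM in the other libraries.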

How the data were processed

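RNA was measured by strand-specific RNA-seq after rRNA depletion in 8 libraries of H9 cells, 2 for each of 4 conditions. The deposited values were raw read counts per Ensembl gene, made by the authors with STAR and HTSeq-count on hg19 (GRCh37). Tool versions and the strand setting are not given in the sources used here. HTSeq summary lines were left out. Of the reads on genes, outside genes or ambiguous between genes, 34.9% to 42.5% per library lay outside genes and 3.81% to 4.75% were ambiguous. The 38 genes and all lists were chosen with earlier results of these data known.

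Counts were filtered with filterByExpr, scaled by TMM and fitted for all 8 libraries with edgeR 4.0.16 in R 4.3.3 (quasi-likelihood, a term for condition, 4 residual degrees of freedom). P-values were adjusted by the Benjamini-Hochberg method over 23474 genes, and a standard error is the log2 fold change divided by the square root of F. In counts simulated for HERVH knockdown against WT, 184 of 200 changed genes were recovered, with 11 false calls among 23464 genes. Recovery was not separated by expression level or size of change. It checks the fit and is no measure of power for the signaling genes, scarce ones such as CER1, NODAL and LEFTY1 among them. Alternatives were RLE scaling, no filter, a replicate block, a GC correction (loess, span 0.3), fits of 4 libraries, edgeR's exact test, DESeq2 1.42.0 and each library left out. Values in every library are given for genes with an FDR below 0.05 against WT and for NODAL, LEFTY1, LEFTY2, CER1, BMP4, SMAD2, SMAD3, ID1 and ID3. From the list of 83 other pathway genes, up to 3 with the largest changes past the threshold are named per comparison, except for a gene that is not reported here, and TDGF1 was added after its values were seen. Counting intervals are exact and cover counting error only.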

Additional observations from a re-analysis of the deposited data

Results flagged for a closer look

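The direct test between conditions, by edgeR at an FDR below 0.05, found 17 differences between changes from WT, summed over comparisons of the same 37 genes. CER1, FST, TGFB1, GREM1 and INHBE are each counted more than once, and the comparisons share libraries. Of all genes, 9.44% differed for knockdown against CHD7 knockout, 1.33% for knockdown against deletion and 2.66% for CHD7 knockout against deletion. In HERVH knockdown cells compared with CHD7 knockout cells, the log2 differences were 2.35 for LEFTY1, 1.65 for LEFTY2, 1.89 for FST, 2.95 for GREM1, 1.70 for TGFB1, 1.46 for BMP2 and 1.08 for SMAD7, and -2.17 for INHBE, -0.997 for BMP7 and -0.50 for SMAD4. In HERVH knockdown compared with HERVH element deleted cells they were 4.96 for CER1, 1.31 for FST and 1.25 for TGFB1. In CHD7 knockout compared with HERVH element deleted cells they were 4.18 for CER1, 1.75 for INHBA, 1.69 for INHBE and -2.43 for GREM1. The CER1 values are fitted against libraries with 1 and 2 counts and depend on the prior count, so they are no bound.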

How the results depend on the processing

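With 2 libraries per condition, the number of genes called moved with the method, no change called in the reported fit reversed, and 0 genes were called in HERVH element deleted cells under every alternative. Shares of all genes called moved in the same settings: in CHD7 knockout cells the share that rose was 1.19% in the reported fit, 1.93% by DESeq2, 2.23% by the exact test, 3.07% with GC correction and 3.48% in the fit of 4 libraries, and in HERVH knockdown cells it was 0.618%, 1.68%, 2.10%, 3.59% and 0.115%. The causes were not tested. Numbers are out of 37 genes, or 38 with no filter.

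In CHD7 knockout cells, 0 genes rose in the reported fit, against 2 by DESeq2 and the exact test, 4 with the GC correction, no filter or a fit of 4 libraries, 3 with GC correction and replicate block, and 1 with the replicate block. A fit of 4 libraries gave 3 that fell in place of 1. As DEGs, 2 rose in the fit of 4 libraries and 3 with no filter in place of 0, and 1 fell by DESeq2, the exact test, either GC correction, no filter and the fit of 4 libraries in place of 0. Of all genes, 0.337% rose as DEGs in the reported fit, 1.04% in the fit of 4 libraries and 0.517% with no filter. In HERVH knockdown cells, 3 rose in the reported fit, against 6 by DESeq2, the exact test and no filter and 7 with either GC correction, and 2 fell in these 5 in place of 0. As DEGs, 4 rose by DESeq2 and the exact test, 5 with no filter (where 1 fell), 2 with GC correction, 3 with GC correction and block and 1 with RLE scaling or the block, in place of 0. Of all genes, 0.0809% rose as DEGs in the reported fit, and 0.452%, 0.571%, 0.392% and 0.4% by DESeq2, the exact test, no filter and GC correction. HERVH knockdown and HERVH element deleted cells differed in 3 genes, against 5 with GC correction or no filter and 0 in the fit of 4 libraries. Of all genes, 0.648% were higher and 0.686% lower in knockdown cells there, 2.27% and 2.65% with GC correction, and 0.0469% and 0.00852% in the fit of 4 libraries. CHD7 knockout and deleted cells differed in 4, against 8 in the fit of 4 libraries. Of all genes, 1.98% were higher and 0.682% lower in CHD7 knockout cells there, and 6.57% and 3.48% in the fit of 4 libraries. The median log2 fold change of -0.0103 in CHD7 knockout cells became 0.0278 with GC correction and block, and that of -0.0431 in deleted cells became -0.0643 with GC correction and -0.0639 with GC correction and block.

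Leaving out 1 library, with a lone library assumed to vary like the other groups, gave 0 to 11 up and 0 to 6 down in HERVH knockdown cells, 0 to 7 up and 0 to 1 down as DEGs, 0 to 1 down in CHD7 knockout cells, and 4 to 20, 0 to 16 and 0 to 1 differences in HERVH knockdown against CHD7 knockout, HERVH knockdown against deleted, and CHD7 knockout against deleted cells. All upper ends above 1 in these ranges came without HERVH knockdown replicate 1. Many more of all genes were called in that fit than in the reported fit, so these numbers are not particular to the signaling genes. Without a WT, CHD7 knockout or deleted library, fewer of all genes were called in the comparisons with that condition. The medians ranged from -0.108 to 0.0253 in CHD7 knockout, 0.0172 to 0.0973 in HERVH knockdown and -0.054 to 0.0256 in deleted cells.

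Replicate numbers are shared between conditions, but the labels name no shared batch, and deviations of same-numbered libraries correlated between -0.237 and 0.423, so the fit without the block is reported. With the replicate block, 4 genes rose in HERVH knockdown cells, 1 rose and 1 fell in CHD7 knockout cells, and the direct comparisons gave 11, 3 and 4. Of all genes, 0.886% rose in HERVH knockdown cells with the block, and 1.33% rose and 0.673% fell in CHD7 knockout cells. In HERVH knockdown against CHD7 knockout cells, 4.17% of all genes were higher and 6.06% lower with the block. The shares were 1.05% and 1.08% in HERVH knockdown against deleted cells, and 2.06% and 0.754% in CHD7 knockout against deleted cells. Crossed numbers, an alternative chosen after seeing the data, gave 4 up and 3 down in CHD7 knockout cells (2 and 1 as DEGs) and 10 and 10 differences from HERVH knockdown and deleted cells. Of all genes, 4.59% rose and 3.66% fell in CHD7 knockout cells with crossed numbers. In HERVH knockdown against CHD7 knockout cells, 3.37% of all genes were then higher and 4.87% lower. In CHD7 knockout against deleted cells the shares were 8.43% and 5.34%. NOG, CER1, TGFB2, GREM1 and LEFTY1 are limited by depth, at 20 or fewer counts in at least 1 library.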
